A study of Mus musculus with 6 samples.

Results

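The genes described here encode 9 proteins of chaperone-assisted folding and of quality control in the endoplasmic reticulum (ER), out of 53647 features in the deposited table. They were taken by identifier and were set apart by place, with 5 cytosolic genes (Vcp, Dnaja1, Dnajb5, Cct5 and Bag1) and 4 genes of the ER or early secretory pathway (Erp44, Calu, Sec61b and Creb3). RNA came from the mouse breast cancer line D2.OR, whose cells had been transduced with a lentivirus carrying a scrambled, non-targeting hairpin (Scram, 3 libraries) or a hairpin against SLX4IP (shSLX4IP, 3 libraries), and selected with puromycin. Both groups grew for 7 days on a Cultrex basement membrane cushion with Cultrex at 5% and serum at 10% in the medium, and the labels name a single targeting hairpin. The replicates are called biological, with no word on separate cultures, so the p-values set the groups against a spread that may be technical.

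Newly made proteins fold with the help of chaperones. In the cytosol, the Hsp70 chaperones work with J-domain co-chaperones that bring them substrates and with nucleotide exchange factors that release them, and the ring-shaped chaperonin TRiC folds actin and tubulin. Proteins of the secretory pathway enter the ER through the Sec61 channel, are folded and checked there, and those that fail are pulled back into the cytosol by the ATPase VCP (p97) and degraded. Transcription factors held in the ER membrane, among them CREB3, are cut free and move to the nucleus in some forms of stress.

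Gene names can be read only in part of this table. The identifiers of Slx4ip, Actb and the major chaperone genes Hspa5, Hsp90b1, Hspa8 and Hsp90ab1 were each listed at 0 in all 6 libraries, so the targeted gene gives no check of the labels, and these chaperones are not analysed here. High values followed the gene order of GRCm38 in 4 chromosome segments, on chromosome 4 from 3574875 to 59904737, chromosome 6 from 3372257 to 30509783, chromosome 15 from 9071260 to 38692446 and a shorter one elsewhere. Genes inside them and the mitochondrial genes are called placed, and all 9 members are placed, with 7 on chromosome 4, Calu on chromosome 6 and Cct5 on chromosome 15. The libraries held 5433573 to 6693111 reads, recovered from the deposited values. Scram A stands apart from Scram B and C: its deposited values sum to 8.95e+06, against 5.28e+06 to 5.97e+06 in the other libraries, and each result is therefore also given without it or on another scale where that matters.

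The promoters of 4 members are shown, which differ in the searched letters they hold. Among these 4, only Vcp holds stress-response letters, and the marks in Dnajb5 and Calu are CCAAT boxes. Vcp, Dnajb5 and Sec61b were lower in shSLX4IP and Calu stayed close to its Scram level, and a relation of the letters to these levels was not tested. The stretches shown are the bases before the gene start (RefSeq, GRCm38.p6), up to the start of the GENCODE M21 gene model. All 9 members had an entry. Capitals mark the CCAAT box (CCAAT), the unfolded protein response element (TGACGTGG) and a pair of heat shock units (GAANNTTC), searched on both strands.
Vcp (chr4:43000508-43000757, - strand): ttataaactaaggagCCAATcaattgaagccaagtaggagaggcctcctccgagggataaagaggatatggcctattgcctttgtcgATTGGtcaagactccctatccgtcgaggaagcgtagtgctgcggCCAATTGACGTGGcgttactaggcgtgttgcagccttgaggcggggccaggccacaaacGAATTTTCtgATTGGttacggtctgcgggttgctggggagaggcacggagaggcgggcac
Dnajb5 (chr4:42949617-42949813, + strand): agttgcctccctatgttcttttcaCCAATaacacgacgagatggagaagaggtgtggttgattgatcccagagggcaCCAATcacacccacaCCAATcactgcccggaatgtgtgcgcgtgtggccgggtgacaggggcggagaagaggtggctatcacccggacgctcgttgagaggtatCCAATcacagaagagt
Sec61b (chr4:47474411-47474657, + strand): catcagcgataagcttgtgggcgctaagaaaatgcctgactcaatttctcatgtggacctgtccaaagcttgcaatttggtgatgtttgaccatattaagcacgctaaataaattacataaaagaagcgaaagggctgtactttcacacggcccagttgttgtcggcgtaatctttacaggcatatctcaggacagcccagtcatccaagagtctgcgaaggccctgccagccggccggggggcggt
Calu (chr6:29347856-29348068, + strand): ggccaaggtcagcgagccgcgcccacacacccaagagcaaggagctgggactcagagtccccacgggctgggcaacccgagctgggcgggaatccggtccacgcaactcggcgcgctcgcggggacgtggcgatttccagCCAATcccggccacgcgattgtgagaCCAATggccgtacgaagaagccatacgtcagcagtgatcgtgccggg
In the Vcp promoter the unfolded protein response element begins 114 bases before the start and directly follows a CCAAT box that begins 119 bases before it. Such an element was found in 0.563% of 32851 windows of 250 bases before RefSeq starts, and Vcp was the only member with one. The pair of heat shock units, which 6.69% of windows hold, was found for Vcp, 60 bases before the start. It was also in 1 of the windows of Dnaja1, 124 bases before a RefSeq start. The windows of Dnaja1 all lie inside its M21 gene model, which starts at 40722150. A CCAAT box was in 9 of the 15 windows of members, those of Vcp, Dnaja1, Dnajb5, Erp44 and Calu, against 33.8% of all windows. Some members have more than 1 window, and these can share a match. The Dnajb5 stretch holds 4 of them, and the Sec61b stretch holds none of the letters searched. The cAMP response element (TGACGTCA) was in no window of a member, against 1.55% of all windows. A match is a run of letters and not a measured binding site.

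Messages of 8 of the 9 members were lower in each shSLX4IP library than in any Scram library, and the message of the ninth, Calu, stayed close to its Scram level. With limma on log2(value + 1) and an adjusted p under 0.05, 7 members were called lower, namely Vcp, Dnaja1, Dnajb5 and Cct5 of the cytosolic set and Erp44, Sec61b and Creb3 of the ER set. Of all 8127 features tested 11.3% were called lower, and of the 462 placed ones 22.9%. The groups did not overlap in 53.5% of all features tested and in 67.1% of placed features, so a gap between the groups is common in this table, and the 8 of 9 members are to be read against that. On chromosome 4, 6 of 7 members were called lower, against 22.8% of the placed features there. The share was 10.3% on chromosome 6, where Calu lies, and 37.7% on chromosome 15, where Cct5 lies. The members were chosen with earlier results of these data known, so these contrasts describe them and are no independent test. No member was called higher by limma, edgeR or DESeq2, and 0 were higher at an unadjusted p under 0.05. By limma at an adjusted p under 0.05, 11.7% of all features and 17.3% of placed features were called higher. Over all 8127 features, edgeR called 712 higher and DESeq2 1602. The share of features higher at an unadjusted p was not counted. The median log2 fold change was -1.50 in the 5 cytosolic genes and -1.49 in the 4 ER genes, beside 0.25 over all features tested and -0.23 over placed features. Among 237 placed nuclear features with a mean of at least 1000, a level that all members but Dnajb5 reach, 26.2% were called lower and the median was -0.28. In bulk RNA, fewer cells that make a message and less of it per cell cannot be told apart.

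**Figure D1:**
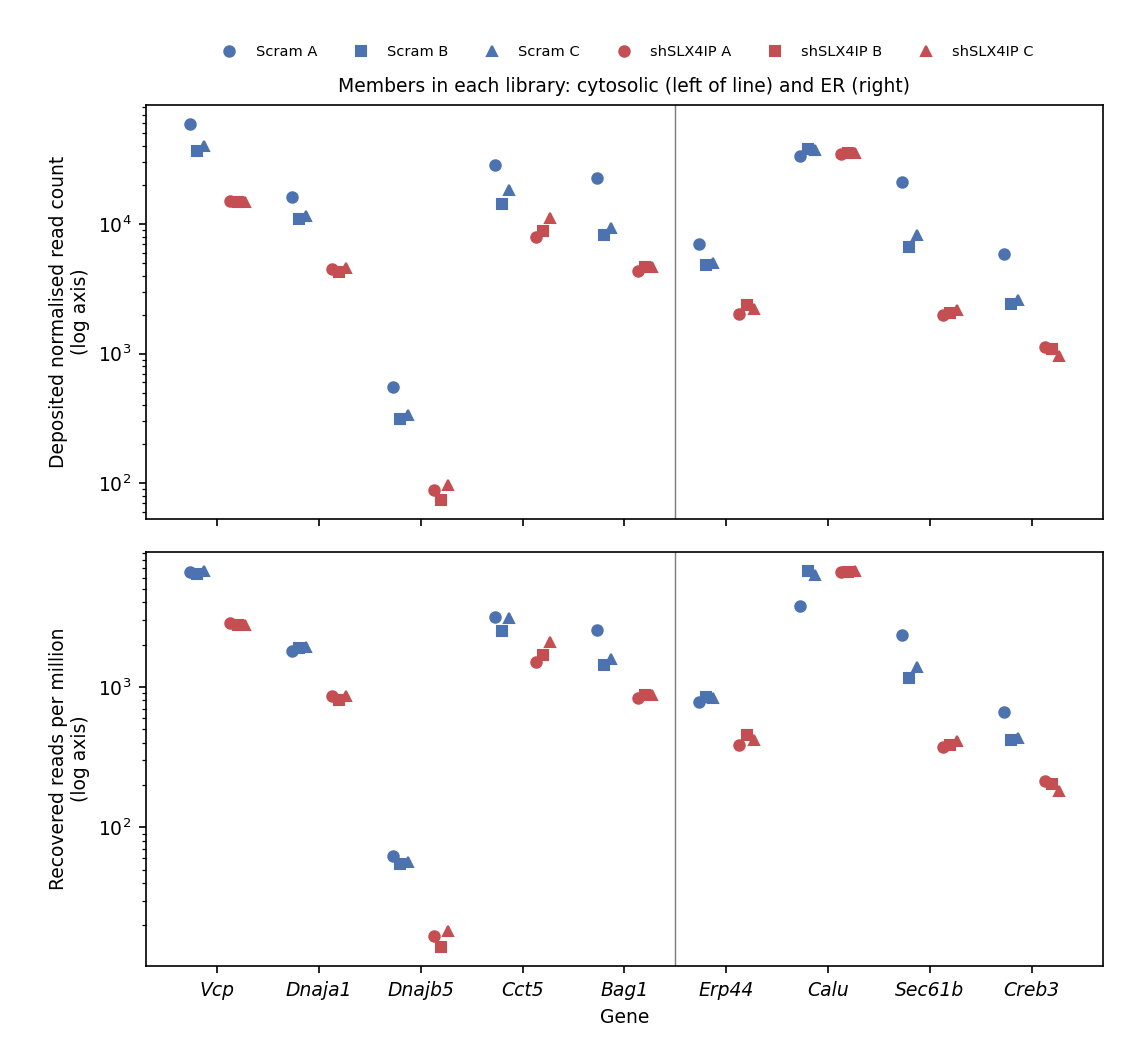
Each point is 1 library, with deposited normalised read counts above and CPM below, on log axes; blue is Scram, red is shSLX4IP and the symbol gives the library letter. Except for Calu, the 3 red points of each gene lie below its 3 blue points on both scales, and Scram A is the highest Scram library for 8 of the 9 genes in the upper panel and for 5 in the lower.

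The message of VCP, the hexameric ATPase that extracts ubiquitinated proteins from membranes and complexes, fell. Vcp (ENSMUSG00000028452.8, chromosome 4, 42979963 to 43000507) was at 59349, 36326 and 40062 normalised read counts in the Scram libraries A, B and C. In the shSLX4IP libraries, in the same order of letters as for each gene below, it was at 15027, 14745 and 14748. The shSLX4IP libraries lay close together, with a coefficient of variation of 1.09%, and far under the lowest Scram library. The shSLX4IP mean was 32.8% of the Scram mean, with a log2 fold change of -1.57 (SE 0.20, limma adjusted p = 0.00477).

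Both J-domain co-chaperones of Hsp70 fell. Dnaja1 (ENSMUSG00000028410.14, chromosome 4, 40722150 to 40737149), an abundant cytosolic Hsp40, was at 16247, 10863 and 11454 in Scram and at 4540, 4282 and 4617 in shSLX4IP. Its log2 fold change was -1.50 (SE 0.18, adjusted p = 0.00415). Dnajb5 (ENSMUSG00000036052.15, chromosome 4, 42949814 to 42959425), another Hsp40 gene, had the lowest level per exonic length of all members. It was at 555, 314 and 336 in Scram and at 88.8, 74.2 and 97.1 in shSLX4IP, which stands for 379, 336 and 369 recovered reads against 98, 76 and 122. Its log2 fold change of -2.16 (SE 0.30, adjusted p = 0.00612) was the lowest of the cytosolic set.

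Cct5 and Bag1 showed more spread. Cct5 (ENSMUSG00000022234.16, chromosome 15, 31590800 to 31601804) encodes the epsilon subunit of TRiC. It was at 28353, 14176 and 18417 in Scram and at 7912, 8877 and 11191 in shSLX4IP. Here shSLX4IP C came closest to Scram B, and the coefficient of variation within shSLX4IP, 18.1%, was the highest of the 9 members. The call (log2 fold change -1.08, SE 0.29, adjusted p = 0.0466) was lost in 8 of the 19 other settings tried, among them the fits without Scram C (adjusted p = 0.108) and without shSLX4IP A (0.159), B (0.153) or C (0.101). Bag1 (ENSMUSG00000028416.14, chromosome 4, 40936398 to 40948294) encodes a nucleotide exchange factor of Hsp70. It was at 22846, 8217 and 9388 in Scram and at 4379, 4648 and 4687 in shSLX4IP, so that Scram A was 2.6 times the average of Scram B and C. The difference did not pass (log2 fold change -1.40, 95% interval -2.39 to -0.42, adjusted p = 0.0558). It passed in 10 of the 19 other settings tried, among which were the fits without Scram A (log2 fold change -0.94, adjusted p = 0.00122), without Scram B (-1.68, adjusted p = 0.0431) and those with edgeR (adjusted p = 0.0432) and DESeq2 (adjusted p = 0.000989) on the recovered reads.

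In the ER set, the gene with the largest fall was that of the translocation channel. Sec61b (ENSMUSG00000053317.12, chromosome 4, 47474658 to 47483242) encodes the beta subunit of the Sec61 complex, through which nascent secretory proteins enter the ER. It was at 21027, 6629 and 8237 in Scram and at 1978, 2053 and 2181 in shSLX4IP, with every Scram library far above the range of shSLX4IP. The shSLX4IP mean was 17.3% of that of Scram (log2 fold change -2.34, SE 0.44, adjusted p = 0.0169). Without Scram A the log2 fold change was -1.84, beside -1.90 for Dnajb5, and the call was lost without shSLX4IP A (adjusted p = 0.0734), B (0.0741) or C (0.0693).

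Erp44 and Creb3 fell as well. Erp44 (ENSMUSG00000028343.11, chromosome 4, 48193323 to 48279558), a thioredoxin-like protein that retrieves cargo from the early secretory pathway through disulphide bonds, was at 6986, 4849 and 4997 in Scram and at 2024, 2392 and 2218 in shSLX4IP. Its log2 fold change was -1.33 (SE 0.19, adjusted p = 0.00626). Creb3 (ENSMUSG00000028466.16, chromosome 4, 43562332 to 43567060), the transcription factor anchored in the ER membrane, was at 5920, 2408 and 2574 in Scram and at 1121, 1079 and 966 in shSLX4IP. Scram A was the highest library by far, and Scram B and C still lay above every shSLX4IP library. The log2 fold change was -1.66 (SE 0.37, adjusted p = 0.0286), and -1.24 (adjusted p = 0.000872) without Scram A. The call was lost without Scram C (adjusted p = 0.0539) and without shSLX4IP A (0.0954), B (0.102) or C (adjusted p = 0.11).

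Calu was the exception. It encodes calumenin, a calcium-binding protein of the ER lumen and secretory pathway. Calu (ENSMUSG00000029767.17, chromosome 6, 29348069 to 29377110) was at 33540, 38211 and 37400 in Scram and at 34650, 35103 and 35601 in shSLX4IP. The groups overlapped, with the shSLX4IP libraries between Scram A and Scram C. The log2 fold change was -0.05 with a 95% interval of -0.30 to 0.20 (adjusted p = 0.727), which spans no change and does not show that the levels are equal. The sign of the Calu difference depended on the scale, with a log2 fold change of 0.30 when libraries were scaled to equal totals and 0.54 after quantile normalization, neither of which passed (adjusted p = 0.368 and 0.17).

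**Figure D2:**
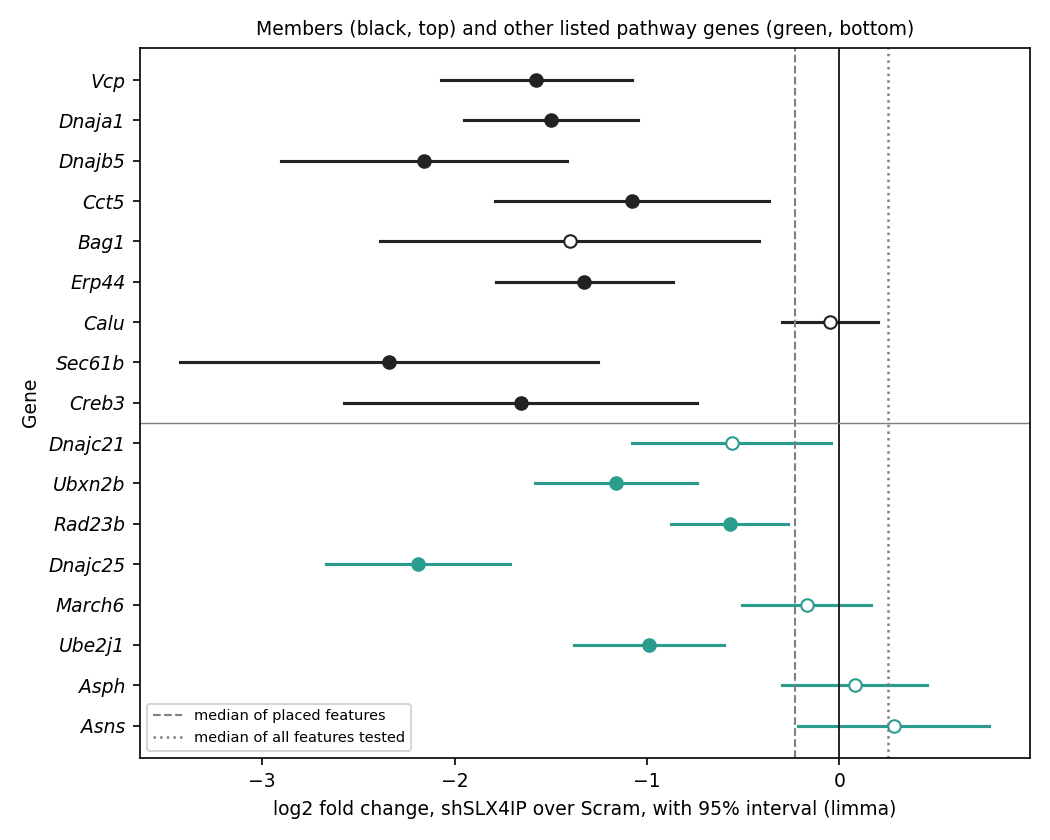
Points are limma log2 fold changes of shSLX4IP over Scram and bars their 95% intervals, filled where the adjusted p is under 0.05. The members stand above the line and 8 other listed pathway genes below it, and the intervals of 8 members end under 0 while that of Calu, -0.30 to 0.20, spans it.

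The balance between the members changed with these differences. Per kilobase of exonic length (the union of all M21 exons, on the scale of deposited values), the Scram mean levels were 9995 for Bag1, 9413 for Sec61b, 9327 for Vcp, 7803 for Calu and 7345 for Cct5. A lower tier held Erp44 at 1642, Creb3 at 1532 and Dnaja1 at 1490, and Dnajb5 was last at 67.7. The genes within each tier lie closer together than the spread of the Scram libraries of Bag1 or Creb3, so their order is not firm. Scram A raised the means of Bag1, Sec61b and Vcp, at 2.60, 2.83 and 1.55 times the average of Scram B and C. For Calu it was at 0.887 times, and by that average Calu was already ahead of these genes per kilobase. In shSLX4IP, Calu was first at 7531 per kilobase, ahead of Bag1 at 3389, Cct5 at 3372 and Vcp at 3059. Sec61b stood at 1629, Erp44 at 647, Dnaja1 at 519, Creb3 at 445 and Dnajb5 at 14.6. The 5 cytosolic genes took 1.2% to 1.4% of the recovered reads of a Scram library and 0.605% to 0.663% of a shSLX4IP library. The ER genes, of which Calu has the most reads, took 0.754% to 0.912% and 0.754% to 0.769%. The lowest Scram share of the ER genes was that of Scram A, and those of Scram B and C lay above every shSLX4IP library.

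How far Scram A stood above Scram B and C differed between the members. In counts per 1000000 recovered reads (CPM), Vcp was at 6633, 6362 and 6706 in Scram and at 2848, 2780 and 2768 in shSLX4IP, so its Scram libraries then lay close together. On that scale Scram A was 1.02 times the average of both other Scram libraries for Vcp, 0.951 times for Dnaja1 and 0.926 times for Erp44. It was 1.85 times for Sec61b, 1.70 times for Bag1 and 1.55 times for Creb3, and 0.579 times for Calu. Sec61b, Bag1 and Creb3 have the shortest exonic lengths of the members, at 1271, 1349 and 2372 bases. The same ratio in deposited values was taken over 346 nuclear genes of the segments that averaged at least 100 and were above 0 in Scram A. Its median was 1.83 in the 116 genes of shortest exonic length, 0.986 in the 115 genes of middle length and 0.830 in the 115 longest. In deposited values the members of the shortest class were at 2.83 (Sec61b), 2.60 (Bag1), 2.38 (Creb3) and 1.74 (Cct5). Those of the middle class were at 1.71 (Dnajb5), 1.55 (Vcp), 1.42 (Erp44) and 0.887 (Calu). Dnaja1, in the longest class, was at 1.46. With that trend with length removed, the log2 fold change was -2.03 for Sec61b, -1.10 for Bag1 and -1.50 for Creb3, and all 3 passed (adjusted p = 0.00181, 0.0123 and 0.00386). That fit adjusted over 431 placed features only, and Bag1 also passed when the main p-values were adjusted over placed features alone (log2 fold change -1.40, adjusted p = 0.0315).

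**Figure D3:**
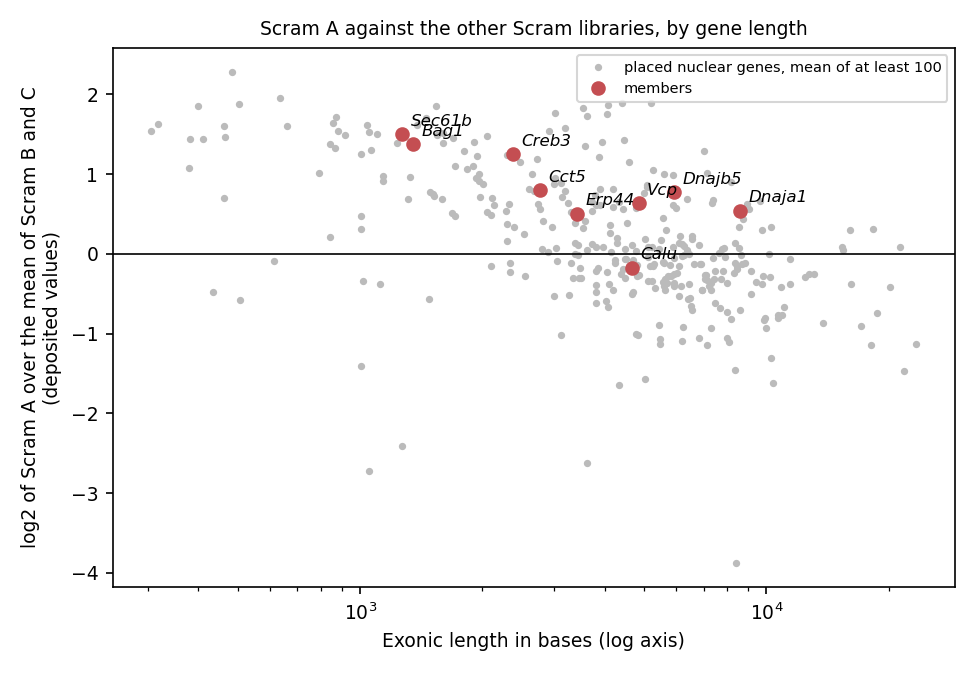
Each point is a placed nuclear gene, with exonic length on a log axis and the excess of Scram A over the mean of both other Scram libraries as a log2 ratio of deposited values; members are red. Short genes lie mostly above 0, among them Sec61b and Bag1, and Calu is the one member below 0.

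The size of the differences depended on the scaling. Scaling to library totals raised the median of all features from 0.25 to 0.61 and that of placed features from -0.23 to 0.12, and the calls over all features went from 952 higher and 920 lower to 1152 higher and 730 lower. Relative to the placed median, the log2 fold change of Vcp was -1.34 in the deposited scale and -1.03 after quantile normalization, and that of Sec61b was -2.11 and -1.92. A scaling by 1 factor per library leaves such relative values as they are, by construction. So do limma without the trend and adjustment over placed features, so these settings are no test of the relative values. Over the 19 other settings, those included, 8 members stayed under the placed median and Calu stayed above it, by 0.04 to 0.47. Vcp, Dnaja1, Dnajb5 and Erp44 were called lower in every one of them. The number of members called lower was 4 without any 1 of the shSLX4IP libraries, 5 without Scram C and 8 without Scram A. Lower calls over all features moved the same way, from 920 in the main test to 414 to 425, 489 and 1560 in those fits. Without Scram B they did not, with 8 members called lower and 881 lower calls over all features.

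**Figure D4:**
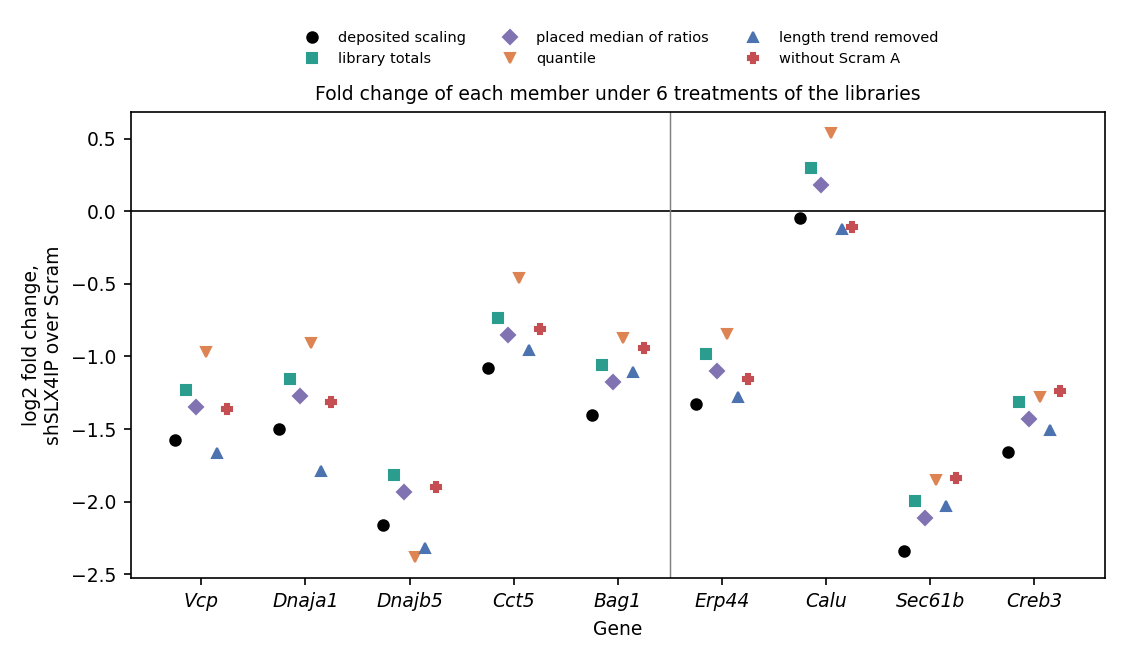
Symbols give the log2 fold change of shSLX4IP over Scram for each member under the deposited scaling and 5 other treatments of the libraries. All values of 8 members lie under 0, from -0.46 for Cct5 to -2.38 for Dnajb5, both after quantile normalization, and Calu lies between -0.12 and 0.54.

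Other genes of the same pathways were read from 4 lists with 267 genes, of which 17 are placed and tested, 9 of them the members. Of the other 8 genes, 4 were called lower and 4 did not pass, with a median log2 fold change of -0.57. None was called higher by limma, edgeR or DESeq2, and 0 were higher at an unadjusted p under 0.05. By limma, 11.3% of all features tested were called lower and 11.7% higher, and of placed features 22.9% and 17.3%. The median over placed features was -0.23. Of the list of VCP and its cofactors, 24 of 27 genes lie outside the segments, and the 2 that could be read beside Vcp both fell. Ubxn2b, a UBX-domain adaptor of VCP, went from 926 ± 54.4 to 415 ± 53.5 (mean ± SD, n = 3 each; limma adjusted p = 0.00724), a call lost with library totals (adjusted p = 0.0789). Rad23b, a shuttle that brings ubiquitinated proteins to the proteasome, went from 19164 ± 2072 to 12857 ± 420 (adjusted p = 0.0254). It missed the threshold in 10 of the 19 further settings, including the fits without Scram C (adjusted p = 0.0939) or without shSLX4IP A (0.118), B (0.109) or C (0.107), and its sign turned after quantile normalization (log2 fold change 0.13).

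In the ER list, 2 of 4 further genes fell. Dnajc25, a membrane J-domain gene, was at 1970, 1568 and 1457 in Scram and at 371, 314 and 402 in shSLX4IP (log2 fold change -2.19, SE 0.19, limma adjusted p = 0.00141). Ube2j1, a ubiquitin-conjugating enzyme of ER-associated degradation, was at 5692, 4548 and 4533 in Scram and at 2196, 2557 and 2667 in shSLX4IP (log2 fold change -0.99, adjusted p = 0.00946), and missed the threshold without shSLX4IP A (adjusted p = 0.0507) and after quantile normalization (0.0577). The groups overlapped for neither gene, as in 53.5% of all features tested and 67.1% of placed features. Exons of Dnajc25 overlap those of Gm20503 on the same strand. March6, a ubiquitin ligase of the same route, had means of 3261 and 2896 (log2 fold change -0.17, 95% interval -0.50 to 0.17), and Asph, an ER hydroxylase, 4563 and 4782 (0.08, interval -0.30 to 0.46), and neither passed. In the other lists, the J-domain gene Dnajc21 had means of 1535 and 1023 (adjusted p = 0.107), and passed without Scram A (adjusted p = 0.0298). Asns, a target of the stress factor ATF4, was at 18363, 11215 and 12652 in Scram and at 16683, 16903 and 16602 in shSLX4IP (adjusted p = 0.334), with Scram A above and Scram B and C below the shSLX4IP libraries. Without Scram A its log2 fold change was 0.49 (adjusted p = 0.00470).

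The members whose patterns over the 6 libraries were most alike were Vcp and Dnaja1. Each was the nearest of 373 other placed genes with a mean of at least 100 to the other, with a root mean square difference of 0.06 between their log2 values after centring. For the other members the nearest gene was no member. It was Sub1 for Creb3 (0.06), Rbm12b2 for Calu (0.04), Snrpd1 for Bag1 (0.09), Nbn for Erp44 (0.11), Pop1 for Dnajb5 (0.13), Tesk1 for Cct5 (0.17) and Ptgr1 for Sec61b (0.17). Over 6 libraries in 2 groups, this measure takes in both the fold change and the excess in Scram A.

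Some reads of these genes may belong to others. Exons of Creb3 overlap those of Tln1 and Gba2 on the other strand, those of Dnaja1 overlap Smu1 and Gm6297, those of Vcp overlap 1700022I11Rik and those of Calu overlap Opn1sw. The kit marks strand, but the strand setting of the counting is not given in the sources used here. Tln1, next to Creb3, had means of 19757 and 15924 and was not called (adjusted p = 0.135), and Gba2 was higher in shSLX4IP, with means of 520 and 856 (adjusted p = 0.0248), so neither had the fall of Creb3. Smu1 had means of 8270 and 4515 (adjusted p = 0.0840), and 1700022I11Rik and Opn1sw were at most 35.1 in every library. Near-identical stretches of at least 300 bases at 95% identity or more were found for Vcp in the pseudogene Vcp-rs, for Dnaja1 in 3 processed pseudogenes and for Sec61b in Gm10320, so the values of these 3 genes carry that uncertainty. Dnajb5, Cct5, Bag1 and Erp44 had none.

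Marker genes of cell types could be read for 4 of 29 listed genes. The epithelial regulators Esrp1 and Grhl2 were low in both groups, at 0 to 13.2 and 2.93 to 68.8, and the keratins, Epcam and Cdh1 lie outside the segments and are not analysed here. Of the fibroblast or mesenchymal list, Col1a2 was at 20226 to 25022 in Scram and 239 to 302 in shSLX4IP, and Zeb1 at 349 to 961 and 1423 to 1484. The listed endothelial and immune markers all lie outside the segments. Of these, Col1a2 was called lower in shSLX4IP (limma adjusted p = 7.64e-05), as most members were. Zeb1 was higher in each shSLX4IP library than in any Scram library but was not called (limma adjusted p = 0.0798). The part of either gene in the members' values was not tested.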

How the data were processed

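Poly(A) RNA of 6 samples was sequenced, 3 per group. Per the submitters' processing notes, fastp 0.19.5, STAR 2.7.7, StringTie 2.1.7, DESeq2 1.22.1 and GRCm38 (mm10) were used, but which tool did what, the annotation release and the strand setting are not stated there. The file's name and values show a signal per gene that the authors deposited after dividing each library's read counts by a size factor. Dividing each library by the value of 1 read gave whole reads, to within 0.1 of a read, for 99.9764% to 100% of the values above 0; these are the recovered reads. No label ties a column letter (A, B or C) to a replicate number.

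Of 53647 features, 52093 matched a GENCODE M21 gene without version, but 35 matched with version. Segments were runs of protein-coding genes in M21 order, a mean of at least 1000 scoring 3 and any other -1, with a total of at least 30. Features with a mean of at least 10 were tested by limma 3.58.1 (R 4.3.3), 2-sided and with its trend option, after a log2 transform of value + 1, with Benjamini-Hochberg adjustment over 8127 features. Fold changes are on that log2 scale, which understates low genes, as shSLX4IP over Scram. Recovered reads were tested with edgeR 4.0.16 (quasi-likelihood) and DESeq2 1.42.0. The limma step was tested on simulated reads whose spread was taken from the libraries other than Scram A. The simulation had no trend with length, so it does not cover calls made under the spread of Scram A. Genes named by rule are the members, the placed genes of the 4 lists, Slx4ip and each member's nearest gene; other chaperones and Actb, cell type markers, and overlapping or near-identical genes are named beside them as checks. The members and lists were chosen with earlier results of these data known, and 1 gene of the lists is not reported here.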

Additional observations from a re-analysis of the deposited data

How the results depend on the processing

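No paired analysis was possible because the column letters are tied to no replicate number. The settings were 2 pseudocounts, 2 filters, 4 scalings, removal of the length trend, adjustment over placed features, limma without the trend, edgeR, DESeq2 and each library left out. Scaling to library totals was chosen after seeing the data. Members called lower stayed within 6 to 8 in each setting with all libraries and ranged from 4 to 8 with a library left out, a fit on fewer samples, against 7. With a library left out, lower calls over all features ranged from 414 to 1560, against 920. Members called higher stayed at 0. Other pathway genes called lower, 4 in the main test, were 2 with quantile normalization, 2 with library totals, 7 with the length trend removed, and 2 to 5 with a library left out. Those called higher were 1 (Asns) with quantile normalization, library totals or the length trend removed, and 0 to 1 with a library left out. Signs turned for Calu with quantile normalization (0.54), placed median of ratios (0.18) and library totals (0.30), for March6 with the same 3 (0.33, 0.059 and 0.18), for Rad23b with quantile normalization (0.13) and for Asph with the length trend removed (-0.40, then called lower, as March6 was) or without Scram A (-0.047, with a highest value of 0.175 over the libraries left out). The cause was not tested. Depth limits Dnajb5 most, at 76 to 379 reads.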
